A study of Mus musculus with 16 samples.

Results

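Expression of 10 genes that mark or serve inhibitory interneurons was described in the hippocampus of male mice after a course of THC (Δ9-tetrahydrocannabinol), the cannabinoid responsible for most of the intoxicating action of cannabis. The genes were Gad1, Gad2, Slc32a1, Sst, Npy, Pvalb, Vip, Cck, Reln and Lhx6. Every probe that the platform annotation pairs with one of these symbols was taken, which gave 20 of the 45281 probes on the array. Of these, 12 probes were detected on enough arrays to be tested, with at least 1 probe for each of the 10 genes.

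C57BL/6J mice aged 2 or 12 months carried a minipump under the skin that released 3 mg THC per kg per day, or its vehicle of ethanol, cremophor and saline, over 28 days. All mice went through a behavioural test between days 33 and 41 and were killed on day 46, so the hippocampus was sampled after the drug had stopped. There were 3 vehicle arrays and 3 THC arrays from mice aged 2 months, and 5 vehicle arrays and 5 THC arrays from mice aged 12 months. The labels list separate samples and the design text gives 3 to 5 mice a group, and p-values measure the spread between these samples. The labels name no genetic change in any group, and no difference but the drug between the THC and vehicle mice of an age.

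Inhibitory interneurons release GABA, the main inhibitory transmitter of the forebrain, onto pyramidal cells, granule cells and each other. GABA is made from glutamate by the enzymes that Gad1 and Gad2 encode, and Slc32a1 encodes the transporter that loads it into vesicles. Hippocampal interneurons fall into classes that are told apart by a calcium-binding protein such as parvalbumin or by neuropeptides such as somatostatin, neuropeptide Y, vasoactive intestinal peptide and cholecystokinin. The cannabinoid receptor encoded by Cnr1, at which THC acts, is dense on the terminals of the cholecystokinin class. In tissue extracts such as these, fewer cells of a type and less RNA per cell cannot be told apart. Cck, Reln, Npy and the GABA genes are also used outside interneurons, Cck in pyramidal cells among others.

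RNA was hybridised to bead arrays, and values are given as log2 intensity after background correction and quantile normalization with neqc of the limma package. Values of different probes are on different scales and were not set against each other. The arrays sat on 4 slides. Slide 1 stood apart, since its 4 arrays had scores of −50.2 to −33.7 and the other 12 of −0.869 to 31.3 on principal component 1, with 32.3% of the variance. Slide 3 held 3 THC arrays of 12 months and 1 THC array of 2 months and no vehicle array. Each THC difference of the 10 genes is therefore given without the slide and, as a second value, with the slide as a block in the model. THC and vehicle arrays of 12 months met only on slides 1 and 4, each with 1 THC array, THC arrays 1 and 5. Within-slide THC values at that age rest on these arrays, and at 2 months on 1 array of each group per slide. The block values at 12 months lean on THC arrays 1 and 5 too, since slide 3 held no vehicle array. Each array detected 41.1% to 45.9% of its probes. Hippocampal markers were present, with 4 of 6 listed CA1 markers, 7 of 10 CA3 and CA2 markers and 4 of 8 dentate granule cell markers tested, and the CA1 list had a mean of 10.26 to 10.93 on every array. The CA3 and CA2 list ran from 7.94 to 8.76 and the dentate list from 6.36 to 8.66. After THC 4 of 4 dentate markers were higher at 12 months (median 0.59) and at 2 months (median 0.85), against 45.8% and 50.6% of all genes. The part of the subfield mix in the interneuron values was not tested.

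No interneuron gene passed a Benjamini-Hochberg adjusted p of 0.05 over the 22625 tested probes in any comparison, with limma, with or without the slide as a block. The percentage of all probes that passed was 0 in each of the first 3 comparisons, which are age among vehicle mice, THC at 12 months and THC at 2 months, and 0.00884, 0.137 and 0 once the slide was a block. It was 0 for the difference between the THC responses of the ages and for age among THC mice, and 0.00442 where 12-month THC mice were set against 2-month vehicle mice, or 0, 0 and 0.00884 with the block. In the first 3 comparisons the smallest unadjusted p without the slide belonged to a lower Reln after THC at 12 months, a higher Reln at 12 than at 2 months in vehicle mice, and a lower Cck after THC at 2 months. Without the slide, 1 of the 12 probes had an unadjusted p under 0.05 for age in vehicle mice (4.56% of all probes), 1 for THC at 12 months (4.77%) and 0 for THC at 2 months (6.12%). With the slide as a block these counts were 2 of 12 (8.7% of all probes), 6 of 12 (11.5%) and 3 of 12 (10.1%).

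The 2 groups of a comparison did not overlap for few of the probes. For age in vehicle mice, 2 of the 12 probes were higher on every array of 12 months than on any of 2 months, against 1.44% of all tested probes, and 0 were lower throughout, against 1.22%. After THC at 12 months, 0 probes were higher throughout (0.194% of all probes) and 1 was lower throughout (0.433%). After THC at 2 months, where 3 arrays met 3, 2 probes were higher throughout (5.51%) and 1 was lower throughout (6.13%). The sign of the difference was positive for 9, 8 and 8 of the 12 probes in these comparisons, against 49.5%, 48.8% and 49.6% of all probes. The 12 include 3 Gad1 probes, so these counts are not over independent items.

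**Figure D1:**
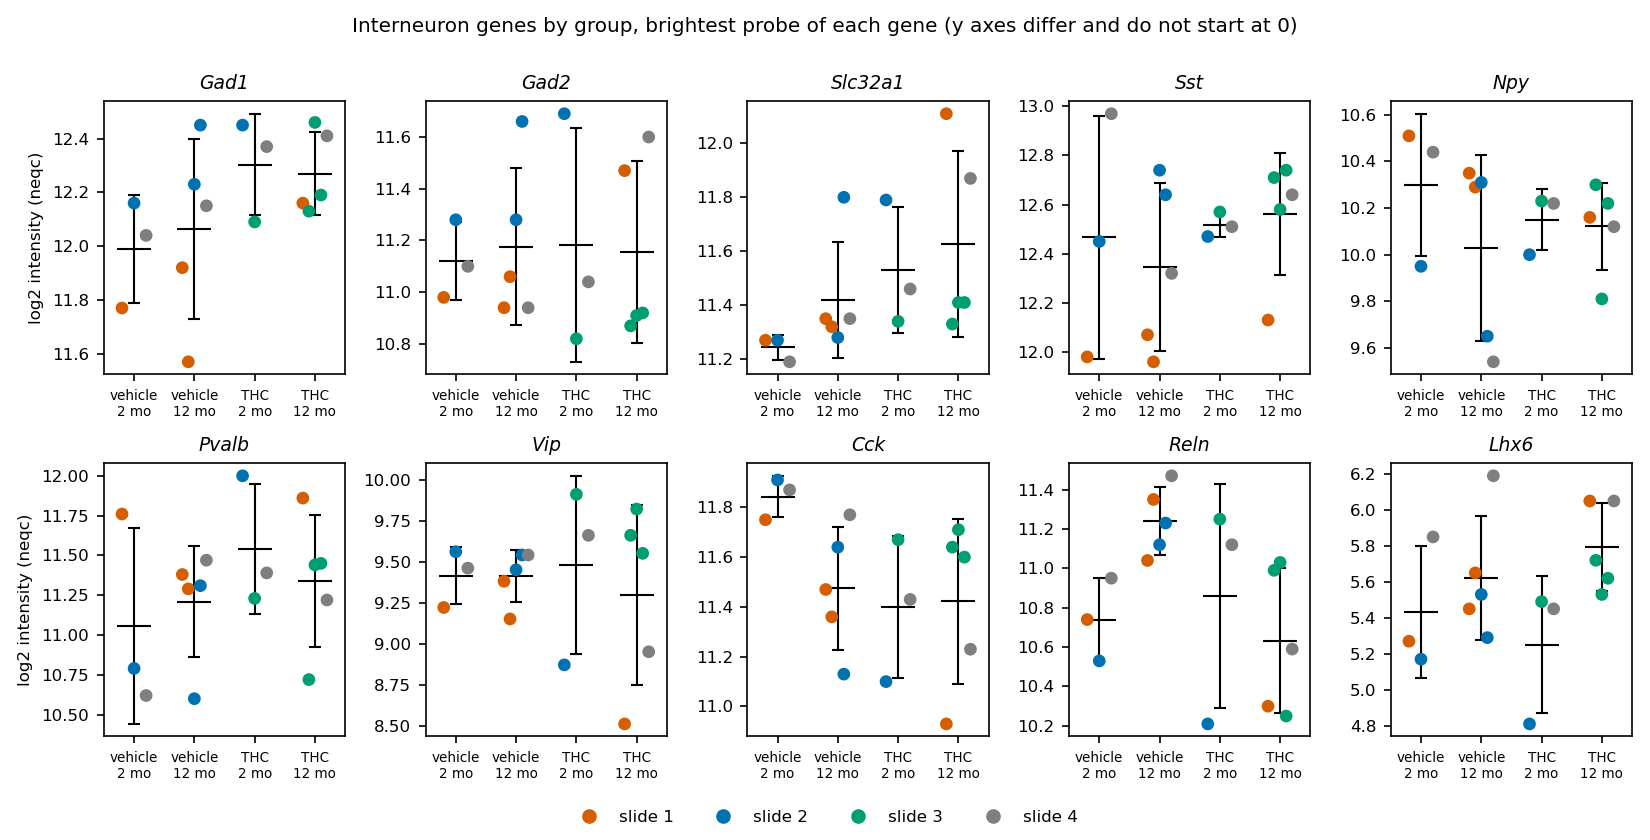
Log2 intensity (neqc) of the brightest probe of each of the 10 genes on each array, by group, with points coloured by slide and bars for the group mean and SD. Reln on the 5 THC arrays at 12 months lies at 10.25 to 11.03, below all 5 vehicle arrays of that age at 11.04 to 11.47, and Cck on the 3 THC arrays at 2 months lies below the 3 vehicle arrays.

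Gad1 encodes GAD67, the glutamate decarboxylase that makes most of the GABA in the brain. Its brightest probe read 11.77, 12.16 and 12.04 on the vehicle arrays of 2 months and 12.45, 12.09 and 12.37 on the THC arrays of that age. At 12 months it read 11.92, 11.57, 12.23, 12.45 and 12.15 after vehicle and 12.16, 12.13, 12.46, 12.19 and 12.41 after THC. The groups overlapped in each comparison, and the lowest 3 values were on slide 1. The THC difference was 0.20 ± 0.15 (SE) at 12 months and 0.31 ± 0.20 at 2 months, with limma adjusted p of 0.916 and 0.792. In the block model they were 0.32 (adjusted p = 0.336) and 0.27 (adjusted p = 0.535), and within the slides that held both groups they ran from 0.25 to 0.41. Age in vehicle mice gave 0.07 ± 0.18.

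The second Gad1 probe read the same RefSeq transcript. It gave a THC difference of 0.20 ± 0.18 at 12 months and 0.33 ± 0.23 at 2 months, and in the younger mice its 3 THC values of 11.89, 11.97 and 12.19 all lay above the vehicle values of 11.39, 11.84 and 11.83. Its 4 lowest arrays were the 4 of slide 1, at 11.28 to 11.63, with all others at 11.83 or above. Its block values were 0.12 at 12 months and 0.17 at 2 months (adjusted p = 0.803 and 0.722). The third Gad1 probe, designed on a cDNA clone, was dim at 5.43 to 6.93 on the 16 arrays and gave 0.15 at 12 months and −0.05 at 2 months, or 0.32 and 0.17 with the block. The fourth Gad1 probe was detected on 0 arrays.

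Gad2 encodes GAD65, the decarboxylase found mostly at axon terminals. Its detected probe read 10.98, 11.28 and 11.10 after vehicle and 11.69, 10.82 and 11.04 after THC at 2 months. At 12 months it read 10.94, 11.06, 11.28, 11.66 and 10.94 after vehicle and 11.47, 10.87, 10.91, 10.92 and 11.60 after THC. Values of 11.47 or more appeared in 3 of the 4 groups, on 1 or 2 arrays each, and all groups overlapped. The THC difference at 12 months was −0.02 ± 0.20 (95% CI −0.43 to 0.39), and with the slide as a block it was 0.46 ± 0.13 with a limma adjusted p of 0.157. It was 0.47 within slide 1 and 0.66 within slide 4, whereas the 3 THC arrays of slide 3, which had no vehicle array beside them, were the 3 lowest of their group at 10.87 to 10.92. At 2 months the difference was 0.07 ± 0.25, and 0.24 with the block, and age in vehicle mice gave 0.06 ± 0.23. The platform annotation gives no accession for this probe, and the Gad2 probe with a RefSeq accession was detected on 0 arrays.

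Slc32a1 encodes the vesicular GABA transporter. Its probe read 11.27, 11.27 and 11.19 on the vehicle arrays of 2 months and 11.79, 11.34 and 11.46 on the THC arrays. At 12 months it read 11.35, 11.32, 11.28, 11.80 and 11.35 after vehicle and 12.11, 11.33, 11.41, 11.41 and 11.87 after THC. All 3 THC arrays of 2 months and all 5 vehicle arrays of 12 months lay above the 3 vehicle arrays of 2 months, in the latter case with 11.28 next to 11.27. The THC difference was 0.29 ± 0.21 at 2 months (limma adjusted p = 0.809) and 0.21 ± 0.16 at 12 months (adjusted p = 0.916), and age in vehicle mice gave 0.18 ± 0.18. In the block model the THC differences were 0.47 (adjusted p = 0.392) and 0.56 (adjusted p = 0.109). The latter was 0.77 within slide 1 and 0.52 within slide 4. Without THC array 1 of 12 months, the array with the highest value, the difference at that age was 0.08, and without slide 1 it was 0.03.

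The promoter window of Slc32a1, the 250 bases before the RefSeq start at chr2:158610508-158610757 on the plus strand of GRCm38.p6, is shown because this gene had the largest block difference among the 3 GABA genes. It is printed in lower case throughout, since none of the 4 motifs searched was in it.
Slc32a1: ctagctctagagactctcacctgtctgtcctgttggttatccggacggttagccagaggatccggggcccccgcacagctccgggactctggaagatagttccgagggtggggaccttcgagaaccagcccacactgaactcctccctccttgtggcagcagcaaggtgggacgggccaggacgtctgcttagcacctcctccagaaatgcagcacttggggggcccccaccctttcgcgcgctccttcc

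The motifs were searched on both strands of this window for all 32851 RefSeq mouse promoters, and 13 promoters of the 10 genes were found. They were TGACGTCA, the cAMP response element, in 1.55% of all promoters, CACGTG, an E-box, in 6.02%, TAATTA, a homeobox core, in 4.84%, and TATAAA, the TATA box, in 12.4%. Among the 13, TGACGTCA was in that of Sst, CACGTG in those of Cck and Reln, TATAAA in those of Gad1 and Vip, and TAATTA in 0. A match describes the letters and does not show a binding site.

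Sst encodes somatostatin, the peptide of interneurons that inhibit the distal dendrites of pyramidal cells. Its probe read 11.98, 12.45 and 12.97 after vehicle and 12.47, 12.57 and 12.51 after THC at 2 months. At 12 months it read 12.07, 11.96, 12.74, 12.64 and 12.32 after vehicle and 12.13, 12.71, 12.58, 12.74 and 12.64 after THC. The 4 lowest of the 16 values, at 11.96 to 12.13, were those of slide 1, from 3 of the 4 groups, and all other arrays read 12.32 or more. The THC difference was 0.21 ± 0.19 at 12 months and 0.05 ± 0.24 at 2 months, and 0.07 and −0.15 with the slide as a block. Age in vehicle mice gave −0.12 ± 0.22.

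The Sst promoter window, chr16:23890845-23891094 on the minus strand of GRCm38.p6 (RefSeq), is shown for its cAMP response element. The capitals mark TGACGTCA, which begins 48 bases before the start.
Sst: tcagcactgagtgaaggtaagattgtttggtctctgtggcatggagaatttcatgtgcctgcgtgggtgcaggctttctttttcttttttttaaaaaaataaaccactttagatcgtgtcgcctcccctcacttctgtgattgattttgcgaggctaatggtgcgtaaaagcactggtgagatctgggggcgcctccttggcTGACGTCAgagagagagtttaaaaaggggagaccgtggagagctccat

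Npy encodes neuropeptide Y, found with somatostatin in many hilar interneurons and in neurogliaform cells. It read 10.51, 9.95 and 10.44 after vehicle and 10.00, 10.23 and 10.22 after THC at 2 months. The older mice read 10.35, 10.29, 10.31, 9.65 and 9.54 after vehicle and 10.16, 10.30, 9.81, 10.22 and 10.12 after THC. The spread within the vehicle group of 12 months was wider than any difference between groups. The THC difference was 0.09 ± 0.17 at 12 months and −0.15 ± 0.23 at 2 months, and age in vehicle mice gave −0.27 ± 0.20. The block moved none of these by more than 0.1 log2.

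Vip encodes vasoactive intestinal peptide, the mark of interneurons that mostly contact other interneurons. It read 9.22, 9.56 and 9.46 after vehicle and 8.87, 9.91 and 9.66 after THC at 2 months. In older mice it read 9.38, 9.15, 9.45, 9.54 and 9.54 after vehicle and 8.51, 9.66, 9.82, 9.55 and 8.95 after THC. The THC groups held both the lowest and the highest values, with an SD of 0.54 and 0.55 against 0.18 and 0.16 in the vehicle groups, a spread that was not tested. The THC difference at 12 months was −0.11 ± 0.23 without the slide and −0.69 ± 0.15 with it (95% CI −1.02 to −0.36, limma adjusted p = 0.0819). It was −0.76 within slide 1 and −0.60 within slide 4. At 2 months it was 0.07 ± 0.30, and −0.29 with the block, and age in vehicle mice gave 0.00 ± 0.27. A second Vip probe was detected on 0 arrays.

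Cck encodes cholecystokinin, the peptide of the interneuron class whose terminals carry most cannabinoid receptor. Its probe read 11.75, 11.91 and 11.87 on the vehicle arrays of 2 months, which gives 11.84 ± 0.08 (SD, n = 3). The THC arrays of that age read 11.10, 11.67 and 11.43, or 11.40 ± 0.28 (SD, n = 3), all below the vehicle arrays. At 12 months the vehicle arrays read 11.47, 11.36, 11.64, 11.13 and 11.77 and the THC arrays 10.93, 11.64, 11.71, 11.60 and 11.23, and these overlapped.

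The Cck difference after THC at 2 months was −0.44 ± 0.21 (95% CI −0.90 to 0.01), with a limma unadjusted p of 0.0534 and an adjusted p of 0.781. With the slide as a block it was −0.67 ± 0.15, with an unadjusted p of 0.000470 and an adjusted p of 0.231. It was −0.81 within slide 2 and −0.44 within slide 4, and −0.30 without THC array 1 of that age. At 12 months the THC difference was −0.05 ± 0.17, and −0.43 ± 0.14 with the block (adjusted p = 0.201), with −0.49 within slide 1 and −0.55 within slide 4. Age in vehicle mice gave −0.37 ± 0.19, and −0.34 with the block (adjusted p = 0.480). The difference between the THC responses of the 2 ages was 0.39 ± 0.27 in log2, with a 95% CI of −0.18 to 0.96, and so was not resolved.

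The Cck promoter window, chr9:121495695-121495944 on the minus strand of GRCm38.p6 (RefSeq), is shown because Cck and Reln had the smallest unadjusted p without the slide and both windows hold CACGTG, in capitals, here 66 bases before the start.
Cck: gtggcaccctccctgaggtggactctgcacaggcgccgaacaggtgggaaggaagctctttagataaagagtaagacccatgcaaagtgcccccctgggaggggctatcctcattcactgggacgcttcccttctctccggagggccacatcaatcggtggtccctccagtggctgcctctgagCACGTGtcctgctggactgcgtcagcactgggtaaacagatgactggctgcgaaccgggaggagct

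Pvalb encodes parvalbumin, the calcium-binding protein of fast-spiking basket cells. It read 11.76, 10.79 and 10.62 after vehicle and 12.00, 11.23 and 11.39 after THC at 2 months. In older mice the values were 11.38, 11.29, 10.60, 11.31 and 11.47 after vehicle and 11.86, 10.72, 11.44, 11.45 and 11.22 after THC. All groups overlapped, and the vehicle arrays of 2 months alone ran from 10.62 to 11.76. The THC difference at 2 months was 0.48 ± 0.32, and 0.73 ± 0.29 with the slide as a block (limma adjusted p = 0.453), with 1.21 within slide 2 and 0.77 within slide 4. The 12-month difference was 0.13 ± 0.25, and 0.39 with the block, with 0.53 within slide 1 and −0.25 within slide 4. Age in vehicle mice gave 0.15 ± 0.28.

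Lhx6 encodes a homeobox transcription factor of interneurons born in the medial ganglionic eminence, the source of the parvalbumin and somatostatin classes. Its tested probe was designed on a cDNA clone, lay near background at 4.81 to 6.19 and was detected on 15 arrays, while the probe with a RefSeq accession was detected on 0. The THC difference was 0.17 ± 0.19 at 12 months and −0.18 ± 0.25 at 2 months, or 0.06 and −0.18 with the block, and age in vehicle mice gave 0.19 ± 0.22. None of these exceeded the spread between arrays.

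Reln encodes reelin, an extracellular matrix protein that directs the layering of neurons in development and is made in the adult hippocampus by interneurons and by Cajal-Retzius cells near the fissure. Its detected probe read 10.74, 10.53 and 10.95 on the vehicle arrays of 2 months, or 10.74 ± 0.21 (SD, n = 3), and 10.21, 11.25 and 11.12 on the THC arrays of that age, or 10.86 ± 0.57 (SD, n = 3). At 12 months the vehicle arrays read 11.04, 11.35, 11.12, 11.23 and 11.47, or 11.24 ± 0.17 (SD, n = 5). The THC arrays of 12 months read 10.30, 10.99, 11.03, 10.25 and 10.59, or 10.63 ± 0.37 (SD, n = 5). All 5 vehicle arrays of 12 months lay above all 3 vehicle arrays of 2 months and above all 5 THC arrays of 12 months, in the latter case with 11.04 next to 11.03. The 4 other Reln probes, all designed on cDNA clones, were detected on 0 arrays.

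Reln was 1.53-fold lower after THC at 12 months, a difference of −0.61 ± 0.20 (95% CI −1.03 to −0.19), with a limma unadjusted p of 0.00729 and an adjusted p of 0.916. With the slide as a block it was −1.01 ± 0.19 (95% CI −1.41 to −0.60), with an unadjusted p of 0.000101 and an adjusted p of 0.0514. It was −0.89 within slide 1 and −0.88 within slide 4, −0.56 without slide 1, and between −0.71 and −0.51 when each array was left out in turn. Age in vehicle mice gave 0.50 ± 0.23, with an unadjusted p of 0.0445 and an adjusted p of 1.00, and 0.56 with the block (adjusted p = 0.385). Within slides 1, 2 and 4 the age difference was 0.45, 0.64 and 0.52. The THC difference at 2 months was 0.12 ± 0.26, and −0.06 with the block.

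The Reln response to THC differed between the ages by −0.73 ± 0.33, with a limma unadjusted p of 0.0400 and an adjusted p of 0.949, and by −0.94 ± 0.25 in the block model, with an adjusted p of 0.352. Of all tested probes, 5.21% had an unadjusted p under 0.05 for this difference, or 10.4% with the block, and of the 12 interneuron probes Reln alone did under both. The age and the THC comparison at 12 months share the 5 vehicle arrays of that age, so that high values on those arrays enter both. Markers of the meninges moved in the same direction as Reln in both comparisons, and so did those of the thalamus. The median of 10 tested meninges markers was 0.85 for age, with 10 of 10 higher against 49.1% of all genes, and −0.55 for THC at 12 months, with 0 of 10 higher against 45.8%. The mean of the meninges list ran from 7.63 to 8.11 on the vehicle arrays of 12 months, from 6.90 to 7.62 on the THC arrays of that age and from 6.90 to 7.42 on the vehicle arrays of 2 months, so these ranges stood apart as those of Reln did. The thalamus list had a median of 0.60 for age, with 10 of 10 higher. For THC at 12 months its median was −0.29, with 1 of 10 higher, but its group ranges overlapped. Striatum, choroid plexus and myelin lists went the other way in both comparisons. With the slide as a block the medians for THC at 12 months were −0.52 for meninges and 0.50 for thalamus. Of 6 listed Cajal-Retzius cell markers, Trp73, Lhx5 and Nhlh2 were detected on 0 arrays, Lhx1 and Barhl2 on 5 each and Ebf3 on 16. For age in vehicle mice Ebf3, Lhx1 and Barhl2 differed by 0.79, 0.38 and 0.00, and for THC at 12 months by −0.31, 0.04 and 0.03. The list's mean ran from 4.67 to 6.84 on the vehicle and 4.75 to 5.90 on the THC arrays of 12 months, and from 4.75 to 4.93 and 4.96 to 6.63 at 2 months. The part of meninges, of thalamus or of Cajal-Retzius cells in the Reln values was not tested.

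The Reln promoter window, chr5:22344706-22344955 on the minus strand of GRCm38.p6 (RefSeq), is shown as that of the gene with the largest difference. It holds 37 CpG sites at 80.0% G and C, against a median of 6 sites and 52.4% over all mouse promoters, and the capitals mark CACGTG, 71 bases before the start.
Reln: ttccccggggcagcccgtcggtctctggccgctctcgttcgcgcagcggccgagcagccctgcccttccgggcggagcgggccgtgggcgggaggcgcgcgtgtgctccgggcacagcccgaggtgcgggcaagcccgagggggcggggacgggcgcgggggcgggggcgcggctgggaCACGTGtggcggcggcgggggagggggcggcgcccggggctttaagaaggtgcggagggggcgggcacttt

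**Figure D2:**
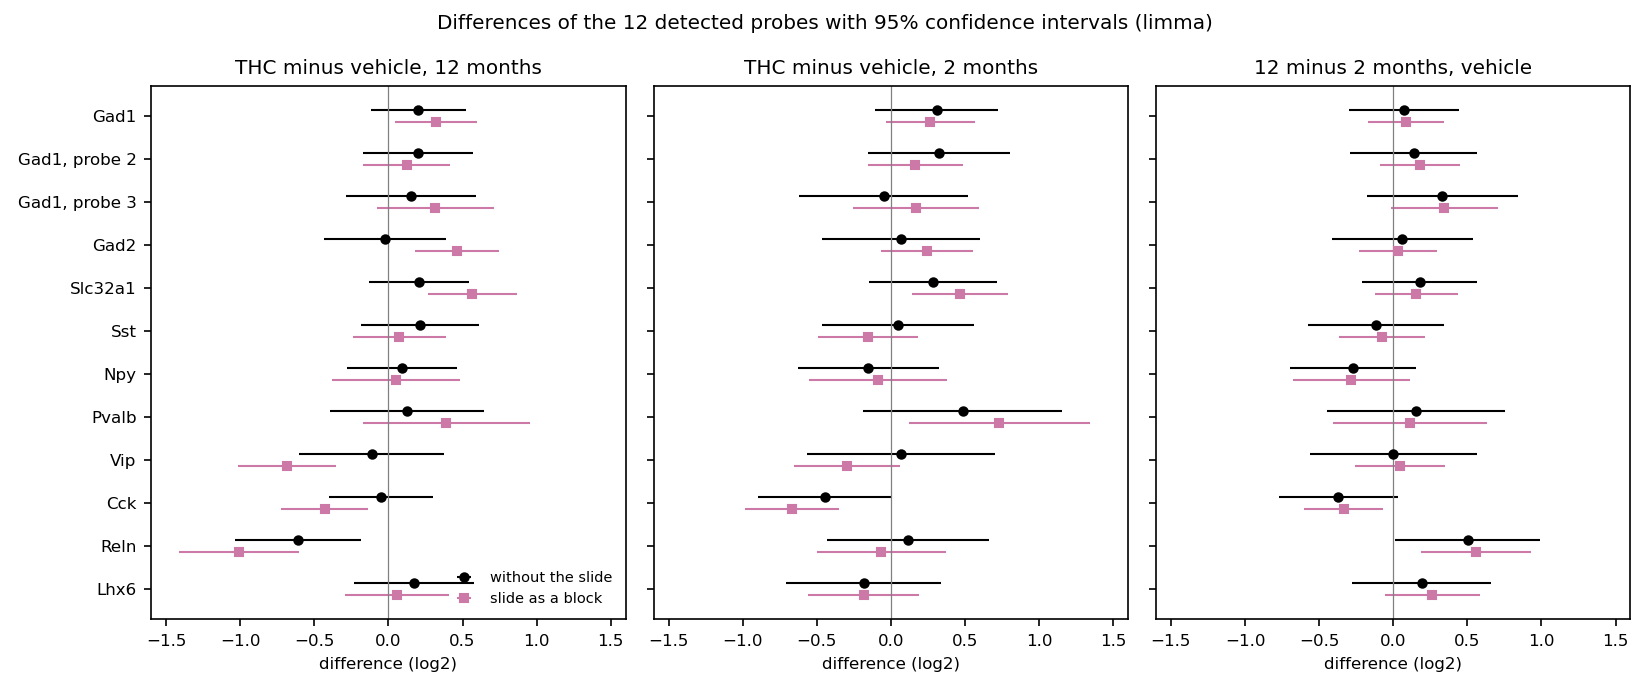
Difference in log2 intensity with its 95% confidence interval for the 12 detected probes in 3 comparisons, without the slide (black circles) and with the slide as a block (pink squares). After THC at 12 months Reln was at −0.61 and −1.01, and Gad2 moved from −0.02 to 0.46 with the block.

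In the THC groups alone, 12-month arrays were compared with 2-month arrays. Of the 12 probes, 2 had an unadjusted p under 0.05, against 7.33% of all probes, and with the slide as a block 3 did, against 12.8%. Lhx6 differed by 0.55 ± 0.22 (limma adjusted p = 0.601) with all 5 older arrays at 5.53 to 6.05 above the younger ones at 4.81 to 5.49, as happened for 3.67% of all probes in that direction and 2.7% in the other, where 0 of the 12 stood. It lay close to background, as did the third Gad1 probe, which differed by 0.53 ± 0.24 (adjusted p = 0.651). Vip differed by −0.18 ± 0.27, and by −0.35 with the block (adjusted p = 0.366).

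The 12-month THC arrays were also set against the 2-month vehicle arrays, a comparison that asks whether the treated older mice lay near untreated younger ones. Of the 12 probes, Cck alone had an unadjusted p under 0.05, against 4.48% of all probes, and with the slide as a block 7 did, against 10.5%. These groups met only on slides 1 and 4, each with 1 THC array, THC arrays 1 and 5. The within-slide values rest on these THC arrays and the block values lean on them. Both are among the 4 arrays described below as extreme for Gad2, Slc32a1 and Cck. Cck differed by −0.42 ± 0.19 (limma adjusted p = 0.996), and by −0.77 ± 0.15 with the block (adjusted p = 0.0791), with −0.83 within slide 1 and −0.64 within slide 4. All 5 older THC arrays read less Cck than the 3 younger vehicle arrays, which held for 2.19% of all probes. Slc32a1 differed by 0.38 ± 0.18 (adjusted p = 0.996) and by 0.72 ± 0.15 with the block (adjusted p = 0.118), and its groups did not overlap either. Slc32a1 and the third Gad1 probe were the 2 of 12 that were higher throughout, against 1.51% of all probes. The block model also gave 0.41 for the brightest Gad1 probe, 0.66 for the third, 0.50 for Gad2 and −0.64 for Vip, with adjusted p between 0.189 and 0.324, against 0.28, 0.48, 0.04 and −0.11 without the slide. Reln differed by −0.11 ± 0.23, and by −0.45 with the block (adjusted p = 0.461).

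Gad2, Slc32a1 and Cck shared a pattern over the 16 arrays that crossed the groups. The 4 highest arrays for Gad2, at 11.47 to 11.69, were the 4 highest for Slc32a1, at 11.79 to 12.11, and the 4 lowest for Cck, at 10.93 to 11.23. They were THC arrays 1 and 5 of 12 months, THC array 1 of 2 months and vehicle array 4 of 12 months, from 3 slides. The 3 THC arrays among them were also the 3 lowest for Vip, at 8.51 to 8.95, while the vehicle array read 9.54. Gad1 did not share the order in full, since THC array 1 of 12 months ranked 9 of 16 for its brightest probe. After each slide's mean was taken off, Pearson r with the mean of Gad1, Gad2 and Slc32a1 was −0.89 for Cck, −0.75 for Vip, −0.50 for Reln, −0.33 for Npy, 0.07 for Sst, 0.20 for Lhx6 and 0.58 for Pvalb. Without that step it was −0.74, −0.50, −0.45, −0.46, 0.22, −0.09 and 0.32 in the same order. These r values describe 16 arrays that share normalization and tissue pieces, and no p is given.

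Some marker lists of tissue outside the hippocampus were high on some of these 4 arrays, and others were not. The mean of 9 of 13 listed striatum markers was 7.73, 7.24, 6.58 and 6.44 on THC arrays 1 and 5 of 12 months, THC array 1 of 2 months and vehicle array 4 of 12 months, and 6.35 to 6.54 on the other 12 except vehicle array 2 of 2 months, at 7.39. That of 10 of 12 thalamus markers was 8.61, 7.48, 9.21 and 8.16 in the same order, and 6.98 to 8.45 elsewhere. For 6 of 12 midbrain dopamine neuron markers it was 6.59, 6.93, 8.29 and 6.41, with 6.84 on THC array 3 of 2 months and at most 6.24 on the rest. The mean of 13 of 16 choroid plexus markers was 7.67, 8.06, 5.82 and 5.34, and 4.90 to 8.79 elsewhere, with the highest value on vehicle array 2 of 2 months. Neocortex markers, 10 of 13 tested, were not high on the 4 arrays, at 7.47, 7.31, 7.60 and 7.72 against 7.24 to 8.16 elsewhere.

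Lhx1, a homeobox gene of diencephalic and brainstem neurons and of Cajal-Retzius cells, was detected on 5 arrays, which were these 4 and THC array 3 of 2 months. It read 6.18, 5.25, 6.49 and 6.66 on the 4 and 5.50 on the fifth, and 4.30 to 4.70 on the rest, and it was singled out after its values were seen. Ebf3, also of the Cajal-Retzius list, read 6.94, 6.24, 8.32 and 8.98 on the 4, 7.05 on the fifth and at most 5.85 on the rest. Barhl2, of that list too, read 4.57, 4.54, 5.09 and 4.86 on the 4, and 4.32 to 5.01 elsewhere. The list's mean was 5.90, 5.34, 6.63 and 6.84 on the 4, 5.83 on the fifth and at most 4.96 on the rest. Drd2, the D2 dopamine receptor gene that marks the striatum, read 6.34, 5.97, 6.12 and 5.59 on the 4, and 4.53 to 6.09 elsewhere. Tcf7l2, a thalamic transcription factor gene, read 8.41, 6.70, 9.76 and 7.90 on the 4, and at most 8.30 elsewhere. Slc17a6, of the same thalamus list, ran from 8.23 to 11.41 outside the 4. It read 12.13 on THC array 1 of 2 months and 11.68 on vehicle array 4 of 12 months. On THC arrays 1 and 5 of 12 months it lay within the range of the other arrays, with 10.14 on array 5. The part of such tissue in the GABA gene and Cck values was not tested. THC arrays 1 and 5 of 12 months are also the arrays on which the within-slide THC values of that age rest.

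By group, the striatum list ran from 6.39 to 7.73 after THC and from 6.35 to 6.47 after vehicle at 12 months, and from 6.43 to 6.58 and 6.53 to 7.39 at 2 months. The thalamus list ran from 7.25 to 8.61 after THC and 7.53 to 8.36 after vehicle at 12 months, and from 7.34 to 9.21 and 6.98 to 7.75 at 2 months. The midbrain list ran from 6.09 to 6.93 and 5.91 to 6.41 at 12 months, and from 6.03 to 8.29 and 5.97 to 6.24 at 2 months. The choroid plexus list ran from 4.90 to 8.06 and 4.92 to 6.67 at 12 months, and from 5.19 to 6.05 and 5.49 to 8.79 at 2 months. The neocortex list ran from 7.31 to 7.82 and 7.24 to 8.03 at 12 months, and from 7.60 to 7.85 and 7.40 to 8.16 at 2 months. All of these group ranges overlapped.

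After THC at 12 months, 9 of 9 striatum, 1 of 10 thalamus, 5 of 6 midbrain, 13 of 13 choroid plexus and 2 of 10 neocortex markers were higher, with medians of 0.46, −0.29, 0.29, 0.64 and −0.23, against 45.8% of all genes. With the slide as a block those medians were 0.63, 0.50, 0.99, 2.27 and −0.35. After THC at 2 months, 2 of 9, 9 of 10, 6 of 6, 0 of 13 and 6 of 10 were higher in the same order, with medians of −0.20, 1.05, 0.85, −1.07 and 0.05, against 50.6% of all genes. With the block the medians at 2 months were −0.14, 1.47, 1.20, −0.56 and 0.10. The striatum, thalamus, choroid plexus and neocortex lists thus lay on opposite sides of 0 at the 2 ages without the slide. The thalamus list changed side at 12 months with it, and so lay above 0 at both ages.

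**Figure D3:**
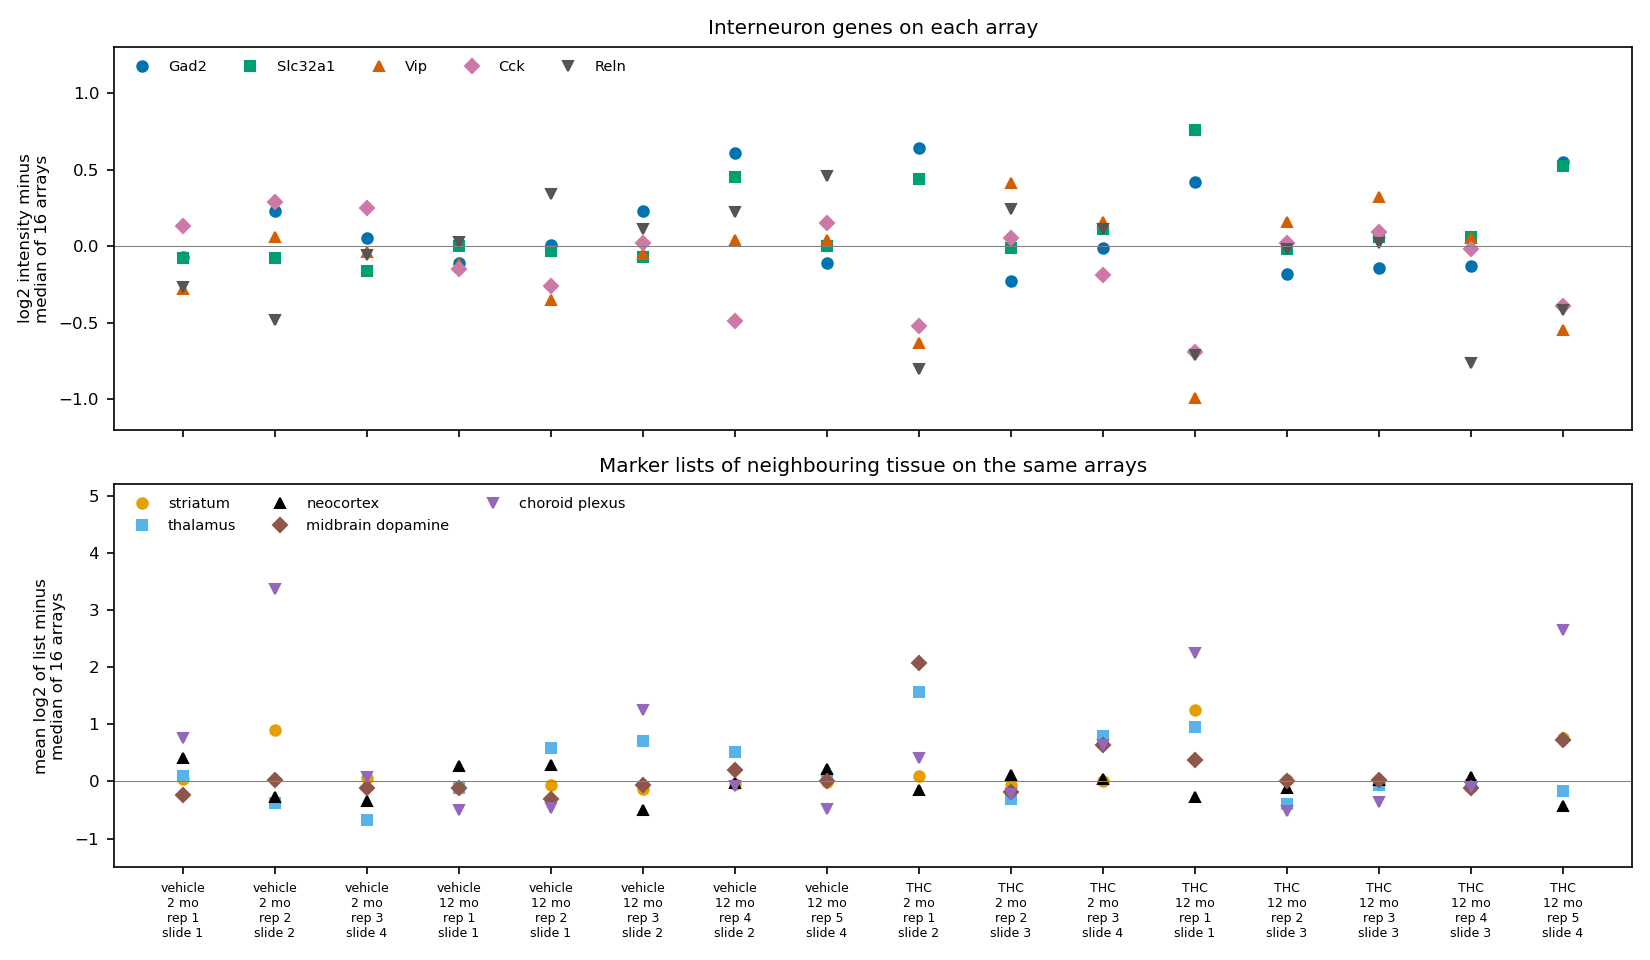
Log2 intensity of 5 interneuron genes on each of the 16 arrays (upper panel) and mean log2 intensity of 5 marker lists of neighbouring tissue on the same arrays (lower panel), each minus its median over the 16. Gad2 and Slc32a1 are high and Cck low on THC arrays 1 and 5 of 12 months, THC array 1 of 2 months and vehicle array 4 of 12 months.

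The 5 genes outside the list whose pattern over the 16 arrays was most like the mean of Gad1, Gad2 and Slc32a1 after slide means were removed were Micall1 (r = 0.93), Dgkk (r = 0.93), Sccpdh (r = 0.91), Scd1 (r = 0.89) and Folh1 (r = 0.88). Without removal of slide means they were Scd1, Dgkk, Psat1, Lhx1 and Agt, with r from 0.86 to 0.88, so Dgkk and Scd1 were shared. Among the 10 genes, Slc32a1 itself had the highest r with that mean after slide means were removed, at 0.99. Without removal Gad2 had the highest, at 0.8949, next to Slc32a1 at 0.8885. Both genes enter the mean.

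Other genes of the GABA and interneuron pathways were taken from 6 fixed lists, and 0 of their 65 tested genes passed the limma adjusted threshold in the first 3 comparisons, with or without the slide as a block. At an unadjusted p under 0.05 there were 3 higher and 1 lower for age in vehicle mice, 1 higher and 5 lower for THC at 12 months, and 2 higher and 5 lower for THC at 2 months. Of all 12020 tested genes, 2.67% and 2.23%, 1.75% and 3.23%, and 2.72% and 3.23% did so. With the block the counts were 7 and 1, 12 and 5, and 7 and 5, against 4.67% and 4.33%, 6.71% and 6.3%, and 5.98% and 4.16% of all genes. Of 9 tested genes of GABA synthesis, breakdown and uptake, 8 were higher at 12 than at 2 months in vehicle mice, with a median of 0.45, against 49.1% of 12020 tested genes and a median of −0.00. After THC 9 of 9 were higher at 2 months, with a median of 0.22, and 4 of 9 at 12 months, with a median of −0.01, against 50.6% and 45.8% of all genes. Glul, which encodes glutamine synthetase of astrocytes, differed by 1.29 ± 0.64 after THC at 2 months and Slc6a11, the GABA transporter GAT3, by 0.64 ± 0.34. With the slide as a block these were 0.56 and 0.81, and without background correction Glul gave 0.64. Both had a limma adjusted p of 0.781, and the Glul vehicle arrays spread with an SD of 1.13 (n = 3).

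Slc6a13, the GABA transporter GAT2 of meninges and vessels, differed by 0.86 ± 0.32 for age in vehicle mice and by −0.62 ± 0.28 for THC at 12 months, with limma adjusted p of 1.00 and 0.916. The meninges markers given beside Reln lay in the same directions. Slc6a12, the betaine and GABA transporter, differed by −0.61 ± 0.30 after THC at 12 months, and by −0.37 with the block. Slc38a1, a glutamine transporter of GABA neurons, differed by 0.55 ± 0.24 for age in vehicle mice on a dim probe, by 0.18 without background correction, and by 0.20 and 0.01 on its other probes. The part of meninges in these values was not tested.

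Of 11 tested interneuron transcription factors, 7 were higher for age in vehicle mice, 6 after THC at 12 months and 5 after THC at 2 months. Zeb2, which directs the migration of interneurons, differed by 0.71 ± 0.29 after THC at 12 months (limma adjusted p = 0.916) and by −0.42 ± 0.33 for age, but its other probes gave 0.12 and 0.77 for THC and 0.04 and −0.14 for age. Satb1, a chromatin organiser of somatostatin interneurons, differed by 0.49 ± 0.29 for age and 0.53 ± 0.33 after THC at 2 months. Nr2f2, of interneurons from the caudal eminence, differed by −0.60 ± 0.36 after THC at 2 months, and Nkx2-1, detected on 2 THC and 1 vehicle arrays of 12 months, by 0.27 ± 0.19 at that age, or 0.48 with the block.

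Of 23 tested genes of interneuron classes, 15, 13 and 9 were higher in the same 3 comparisons. Penk, the enkephalin precursor, differed by −0.88 ± 0.36 for age and by 0.64 ± 0.31 after THC at 12 months, with limma adjusted p of 1.00 and 0.916. The block model gave 1.26 for THC (adjusted p = 0.0774). Without background correction Penk gave −0.41 for age and 0.27 for THC. Penk is abundant in the striatum, and 9 of 9 striatum markers were lower for age, with a median of −0.29, and 9 of 9 higher for THC at 12 months, with a median of 0.46. The part of striatal tissue in the Penk values was not tested.

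Calb2, which encodes calretinin, differed by 1.04 ± 0.47 for age in vehicle mice (limma adjusted p = 1.00), where 10 of 10 thalamus markers were also higher, with a median of 0.60. After THC at 2 months Calb2 differed by 1.14, where 9 of 10 thalamus markers were higher. After THC at 12 months Calb2 differed by 0.04, where 1 of 10 thalamus markers was higher, with a median of −0.29. The part of thalamic tissue in the Calb2 values was not tested. Nos1, of nitric oxide releasing interneurons, differed by −0.69 ± 0.27 and Kit, a receptor kinase of interneurons, by −0.55 ± 0.22 after THC at 2 months, both with an adjusted p of 0.781. The other Nos1 probe gave −0.18 and the other Kit probe −0.84. Tac2, neurokinin B, was detected on 5 THC and 2 vehicle arrays of 12 months and differed by 0.25 ± 0.12, by 0.08 without background correction and by 0.07 on its other probe.

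Of 10 tested receptors for these peptides and for reelin, 7, 5 and 5 were higher. Npy1r, the Y1 receptor for neuropeptide Y, differed by −0.49 ± 0.18 after THC at 12 months (limma adjusted p = 0.916) and −0.43 ± 0.23 at 2 months (adjusted p = 0.781), and in the block model by −0.67 and −0.42. Npy5r differed by 0.57 ± 0.24 at 2 months, with 0.09 for its other probe, and Npy2r by −0.98 ± 0.52 for age in vehicle mice. Sstr1, a somatostatin receptor, was not well above background on the 5 THC arrays of 12 months and was detected on 3 of 5 vehicle arrays. Its vehicle mean of 4.87 was at least 1.03-fold above the limit on the THC arrays, taken on each as the lowest signal of any detected probe. That mean includes vehicle arrays on which Sstr1 was not detected, so this is not a firm bound on the difference.

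The 4 tested GABA-B receptor genes had medians of −0.07 for age, 0.16 for THC at 12 months and −0.11 for THC at 2 months. Gabbr1, a subunit of that receptor, differed by −0.47 ± 0.22 after THC at 2 months, and Kctd12, an auxiliary subunit, by −0.19 ± 0.30, with 0.63 on its other probe. Gabbr2, the partner subunit, differed by 0.19 ± 0.14 after THC at 12 months on a probe near background, and by 0.03 with the block. Of 8 tested genes of perineuronal nets, the matrix around parvalbumin cells, 3, 6 and 4 were higher. Ncan, which encodes neurocan, differed by −0.50 ± 0.18 after THC at 2 months and −0.34 ± 0.14 at 12 months, and Bcan, brevican, by −0.47 ± 0.22 at 2 months with −0.10 on its other probe. At 2 months Ncan read lower on all 3 THC arrays, at 8.69 ± 0.10 (SD, n = 3), than on the vehicle arrays, at 9.19 ± 0.31 (SD, n = 3). Hapln2, of nodes of Ranvier, differed by 0.40 ± 0.30 after THC at 12 months, or 1.00 with the block, where 8 of 8 myelin markers were higher with a median of 0.49. The part of myelin in the Hapln2 value was not tested. Hapln4 and Hapln1, link proteins of the net, differed by −0.24 ± 0.21 and −0.16 ± 0.15 for age in vehicle mice. All 36 values of pathway genes chosen by smallest p kept their sign with the slide as a block and without background correction. Their sizes held less well. Without background correction Npy2r gave −0.49 for age in vehicle mice and Nkx2-1 gave 0.09 after THC at 12 months. After THC at 2 months Nr2f2 gave −0.30 and Gabbr1 −0.21 in that setting. These fits reuse the arrays by which the values were chosen, so the kept signs are no independent support. Other probes of Kctd12 and Zeb2 gave the other sign in some comparisons.

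**Figure D4:**
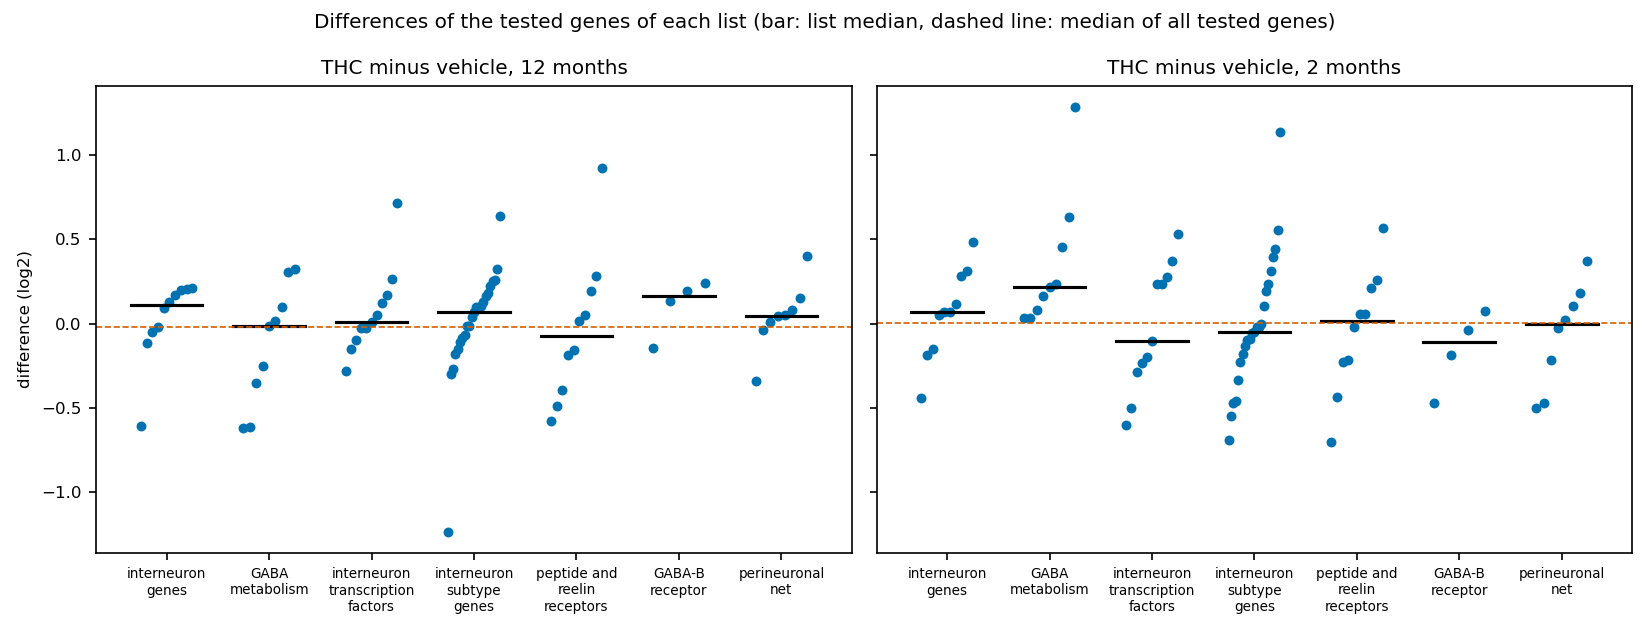
Difference in log2 intensity after THC at 12 months (left) and 2 months (right) for each tested gene of the interneuron set and 6 pathway lists, 1 probe per gene, with bars for list medians and a dashed line for the median of all tested genes, at −0.02 and 0.00. The 9 genes of GABA metabolism have a median of −0.01 at 12 months and 0.22 at 2 months.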

How the data were processed

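The deposited scanner table holds log2 intensities per probe for each of the 16 arrays, not normalized between arrays, and a detection p-value beside each, per the file headers. A series matrix, also deposited in log2 units, matched a quantile normalization of the scanner table to within 0.00713 when recomputed, so its arrays share 1 distribution. The submitters' processing notes name Partek. In the first array 26 detection p-values held text and were treated as missing. Whether background was subtracted is not given in the sources used here.

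The neqc function of limma 3.58.1 (R 4.3.3) corrected background and normalized the scanner values, with an offset of 16. Testing was limited to 22625 probes whose detection p was under 0.05 on 3 or more arrays, and 1 mean per group was fitted over the 16 arrays with moderated variances. All p-values are two-sided and were adjusted over all tested probes. The array number limits the precision. Replicate numbers follow accession order and pair nothing. Slides come from the labels. The fit was tested on simulated data. Promoters are RefSeq windows (GRCm38.p6). Figures used Python 3.11.15 and matplotlib 3.10.9.

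All probes of the 10 genes were described. From each pathway list the 2 tested genes with the smallest p in each of 3 comparisons were named, with the brightest probe per gene. The 10 genes, lists and rules were chosen with earlier results of these data known. Alternatives were other normalizations, filters, the slide as a block with fixed or random effects, array weights, a mean-variance trend with robust variances, compared groups alone, no slide 1, and each array left out. Probe positions within genes were not used here.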

Additional observations from a re-analysis of the deposited data

Results flagged for a closer look

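In 24 groups of 5 arrays, 3 single values lay far from the rest of their group by Dixon's test at the 95% level, which chance gives in about 1 of 20 groups. Slc32a1 read 11.80 on vehicle array 4 of 12 months, against 11.28 to 11.35 on the other vehicle arrays of that age. Sst read 12.13 on THC array 1 of 12 months, an array of slide 1, against 12.58 to 12.74 on the other THC arrays of that age. Pvalb read 10.60 on vehicle array 3 of 12 months, against 11.29 to 11.47.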

How the results depend on the processing

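No interneuron probe passed the adjusted threshold under any alternative run, and the lowest adjusted p was 0.0514, for Reln after THC at 12 months with the slide as a fixed block. Group sizes of 3 and 5 and probes near background (Lhx6, the third Gad1 probe) limit what can be resolved. No paired analysis was possible because replicate numbers follow accession order. The cause of the changes below was not tested.

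The number of all probes past the threshold went from 0 to 3 for age in vehicle mice with quantile normalization or the series matrix, to 2 with no filter, the stricter filter or either kind of slide block, and to 1 with a trend and robust variances. For THC at 12 months it went from 0 to 31 with the fixed block. For age in THC mice it went from 0 to 1 with quantile normalization, the series matrix, no filter or array weights, and to 2 with the random block. For old THC against young vehicle mice it went from 1 to 2 with the fixed block and to 0 with the trend, without slide 1, with the compared groups alone, or with any array left out. Leaving out arrays gave 0 to 1 for age in vehicle mice.

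Signs turned for small differences. With the slide as a fixed block, THC at 12 months gave 0.46 for Gad2 (0.24 as a random block), and THC at 2 months gave 0.17 for the third Gad1 probe, −0.15 for Sst, −0.29 for Vip and −0.0634 for Reln, with 0.0818, −0.073 and −0.13 for the first 3 as a random block. With array weights, Vip gave −0.0324 by age among vehicle mice, 0.0274 after THC at 12 and −0.00878 after THC at 2 months, and 0.00371 by age among THC mice, Cck 0.047 for THC at 12 months, Sst −0.0699 for THC at 2 months and Gad2 −0.0765 for old THC against young vehicle. Without slide 1, Cck gave 0.0314 for THC at 12 months, THC at 2 months gave 0.0237 for the third Gad1 probe, −0.000441 for Gad2, −0.19 for Sst and −0.0277 for Vip, Vip gave 0.0156 for age in THC mice and Gad2 −0.11 for old THC against young vehicle.

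With each array left out in turn, THC at 12 months ran from −0.14 to 0.0725 for Cck, −0.13 to 0.0985 for Gad2, −0.03 to 0.17 for Npy, −0.0242 to 0.28 for Pvalb and −0.25 to 0.0836 for Vip. THC at 2 months ran from −0.24 to 0.22 for the third Gad1 probe, −0.18 to 0.25 for Gad2, −0.31 to 0.0373 for Lhx6, −0.0779 to 0.44 for Reln, −0.19 to 0.30 for Sst and −0.14 to 0.37 for Vip. Age in vehicle mice ran from −0.0387 to 0.20 for the first and −0.0115 to 0.27 for the second Gad1 probe, −0.0605 to 0.14 for Gad2, −0.0628 to 0.50 for Pvalb, −0.36 to 0.13 for Sst and −0.0957 to 0.0745 for Vip. Age in THC mice ran from −0.49 to 0.0307 for Vip. Old THC against young vehicle ran from −0.0733 to 0.12 for Gad2 and −0.24 to 0.0851 for Vip.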
